A study of Mus musculus with 4 samples.

Results

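The 10 genes described here are nuclear genes whose proteins transcribe and copy mitochondrial DNA or keep mitochondrial mRNA stable. They were chosen by name: Polrmt, Tfam, Tfb2m, Tefm, Polg, Polg2, Twnk, Ssbp1, Lrpprc and Slirp. All 10 were found, each as 1 row, among the 22266 genes of the deposited table, and all 10 passed the filter of a mean of at least 1 TPM. Expression was measured by sequencing of poly(A)-selected RNA in 4 libraries of mouse embryonic stem cells, grown on gelatin in serum medium with leukemia inhibitory factor. All cells came from the female line PGK12.1 and carried floxed Cbx2 alleles joined to a HaloTag. The EtOH group (n = 2, day 0, labelled wild type) received ethanol, and the OHT group (n = 2, day 2, labelled knockout) received 1.0 µM 4-hydroxytamoxifen for 48 hours to delete Cbx2, which encodes a Polycomb protein. Every library is labelled as batch 2, and no library combines 4-hydroxytamoxifen with intact Cbx2, so drug, time and deletion cannot be told apart. Nothing in the labels says that replicates were separate cultures, so a p-value here reflects the spread between libraries, which may be technical.

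Mitochondrial DNA is a small circle read from both strands by a single-subunit RNA polymerase that differs from the nuclear ones. The long transcripts are cut into rRNAs, tRNAs and mRNAs, and a separate replisome of polymerase, helicase and single-strand binding protein copies the circle. All of these proteins are encoded in the nucleus, and embryonic stem cells divide fast, so the mitochondrial genome must be copied along with the cell.

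A short motif stood in the promoter windows of 8 of the 10 genes. RefSeq promoter windows (build GRCm38.p6, 250 bases before to 50 after the RefSeq start) were found for all 10 genes, 11 windows in all because Twnk has a pair. The letters CCGGAAG, a site bound by ETS factors such as GABP, were searched as an exact run on both strands and stood in 8 of the 11 windows. Among the 12256 windows of genes expressed enough to test, 17.8% hold them, and among all 32851 windows 8.86% do. The match nearest to the RefSeq start is shown for each of the 8, written 5′ to 3′ on the strand that reads CCGGAAG, with the motif in capitals and 10 bases on either side.
Polrmt: tctgcgactgCCGGAAGcgctcttagg
Tfam: ctgccgcggaCCGGAAGtccgggcttc
Tefm: gcacacgaaaCCGGAAGttgaggagga
Polg: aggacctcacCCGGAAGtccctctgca
Polg2: gaccacgcccCCGGAAGagcgtcaccc
Twnk: cgcggtgactCCGGAAGcaaaactctc
Ssbp1: gctccgtgcgCCGGAAGcgagccgctg
Slirp: agtcgtgaccCCGGAAGaacctgccag
Counted from the start of the RefSeq window's transcript as base 1, these matches began at -43 in Polrmt, -47 in Tfam, -9 in Tefm and -38 in Polg. They began at -29 in Polg2, -66 in Twnk, -47 in Ssbp1 and -11 in Slirp. The RefSeq start is the same base as the outermost GENCODE start, which bounds the gene coordinates given further on, in Polrmt, Polg2 and Slirp. In the others it lies inside the GENCODE gene, by 22 bases in Tefm, 89 in Polg, 116 in Ssbp1, 236 in Tfam and 895 in Twnk, so the matches of these 5 are before the RefSeq start but within the GENCODE gene. Tfb2m and Lrpprc have no CCGGAAG in their windows, nor does the other Twnk window, which begins 250 bases before the GENCODE start. The NRF1 palindrome, bound by NRF1, a master regulator of nuclear genes for mitochondria, stood in none of the 11 windows and in 2.1% of those of tested genes. Its looser form, with any letters at the central pair of bases, stood in Polrmt alone, against 13.2% of windows of tested genes, and AAGATGGCG, the YY1 letters, in Slirp alone, against 3.0%. A match is only a run of letters, and binding was not measured.

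Slirp and Lrpprc encode partner proteins of a single complex, and their windows are given whole because Slirp had the largest log2 fold change of the 10 and Lrpprc the smallest in size. Both windows are on the gene's strand, 5′ to 3′, with CCGGAAG, AAGATGGCG and their reverse complements in capitals. The Slirp window (GRCm38.p6, chr12:87443646-87443945, plus strand) has 3 CCGGAAG matches and 1 AAGATGGCG match. The Lrpprc window (chr17:84790737-84791036, minus strand) has none, though its GC content is 64.3% against 62.0% in Slirp and a median of 60.7% for tested genes. In RefSeq, Alkbh1 (87428077 to 87443839) and Nrp (87442848 to 87444017) overlap the Slirp window. The Slirp window's CCGGAAG match beginning at -146 and its AAGATGGCG match at -86 lie within Alkbh1 too.
Slirp: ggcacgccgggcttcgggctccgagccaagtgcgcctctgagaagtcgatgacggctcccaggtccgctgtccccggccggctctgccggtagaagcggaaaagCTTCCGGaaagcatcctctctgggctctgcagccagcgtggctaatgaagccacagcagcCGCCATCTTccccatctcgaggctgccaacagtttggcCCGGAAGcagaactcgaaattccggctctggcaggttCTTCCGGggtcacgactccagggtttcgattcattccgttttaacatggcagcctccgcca
Lrpprc: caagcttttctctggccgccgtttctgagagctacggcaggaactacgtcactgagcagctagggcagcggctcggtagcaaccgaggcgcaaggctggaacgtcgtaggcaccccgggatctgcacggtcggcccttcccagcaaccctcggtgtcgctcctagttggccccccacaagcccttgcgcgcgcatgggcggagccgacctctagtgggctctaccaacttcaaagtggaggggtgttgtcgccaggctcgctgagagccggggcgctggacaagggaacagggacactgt

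Levels were read as TPM, a share of transcripts that corrects for transcript length and sets each library to the same total. With EtOH, the most abundant were Ssbp1 (mean 164 TPM), Slirp (159 TPM) and Tfam (123 TPM), encoding a DNA-binding protein, an RNA-binding protein and the DNA-packaging factor. Lrpprc (39.4 TPM), Polg (30.0 TPM), Tefm (24.5 TPM), Polrmt (21.9 TPM), Twnk (21.5 TPM) and Tfb2m (20.0 TPM) formed a middle tier. Polg2 was the lowest, at 4.49 TPM. Within the middle tier the EtOH libraries of Polrmt (22.8 and 21.0 TPM) and Twnk (21.7 and 21.3 TPM) overlapped, and Ssbp1 (159.6 and 168 TPM) and Slirp (160.2 and 158 TPM) overlapped at the top. The other neighbours in this order did not overlap with EtOH. With OHT, the Slirp libraries (134 and 95.6 TPM) enclosed those of Tfam (124 and 127 TPM), and the Slirp mean was the lower one (115 against 125 TPM). Tefm, Polrmt and Twnk overlapped with one another in the OHT libraries, as did Polg (22.5 and 35.7 TPM) with Polrmt and Tfb2m (13.6 and 19.4 TPM) with Twnk. Since TPM keeps no read counts, the depth behind each value is unknown.

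**Figure D1:**
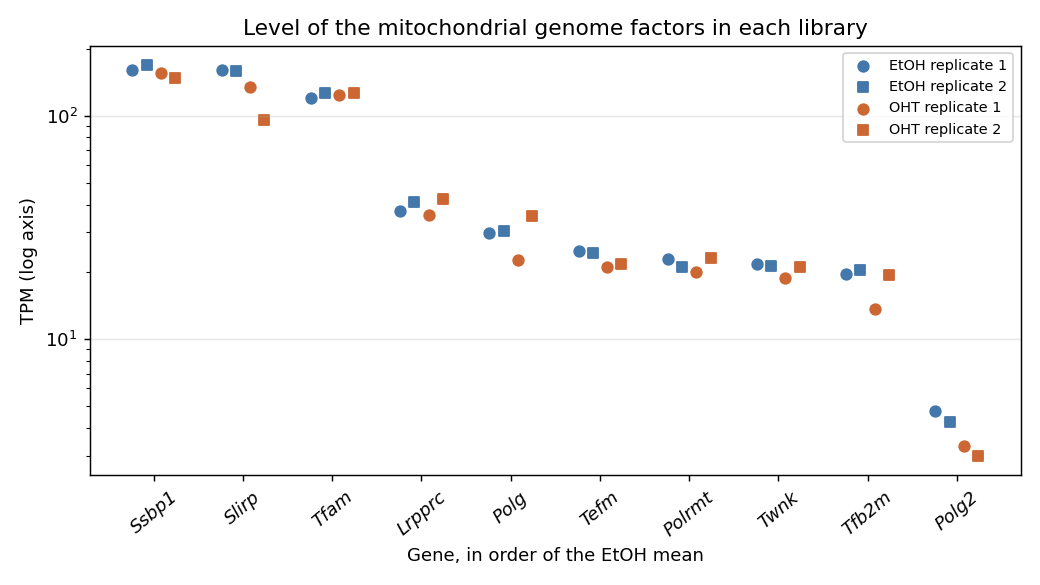
TPM on a log axis of the 10 genes in each of the 4 libraries, ordered by their EtOH mean; circles and squares are replicates 1 and 2, blue EtOH and orange OHT. Tfb2m, Tefm, Polg2, Twnk, Ssbp1 and Slirp are lower in both OHT libraries, while Tfam stays between 120.2 and 127 TPM in all 4.

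None of the 10 passed the threshold between OHT and EtOH (limma, adjusted p under 0.05 over 12029 genes), where 5 genes did in all, 0.0416% of those tested. At an unadjusted p under 0.05 stood 1 of the 10, Slirp, on the lower side, where 4.46% of all tested genes stood; none of the 10 stood on the higher side, where 6.02% did. Fold changes were negative for 9 of the 10, and for 5534 of the 12029 genes tested. The median log2 fold change of the 10 was -0.11, against 0.02 for all genes tested. Each OHT library was below each EtOH library for 6 of the 10 (Tfb2m, Tefm, Polg2, Twnk, Ssbp1 and Slirp) and above them for none. Among all tested genes 19.4% lay below and 23.1% above in this way. After each library was corrected for its trend with transcript length and GC content (a length and GC correction), 5 of the 10 lay below, but these were Slirp, Polg2, Twnk, Polg and Polrmt, and none lay above. Among all tested genes 19.3% lay below and 25.3% above after that correction. Without OHT replicate 1 the median of the 10 was -0.03, against 0.14 for all tested genes, and without OHT replicate 2 it was -0.20, against -0.09. With 1 OHT library against 2, far more genes do not overlap. Without OHT replicate 1, 6 of the 10 lay below and 4 above, where 26.3% and 61.9% of all tested genes did. Without OHT replicate 2, 9 lay below and none above, where 56.3% and 29.8% did. An exact permutation test of 2 against 2 libraries cannot give a two-sided p under 0.333, so no single gene was tested that way.

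**Figure D2:**
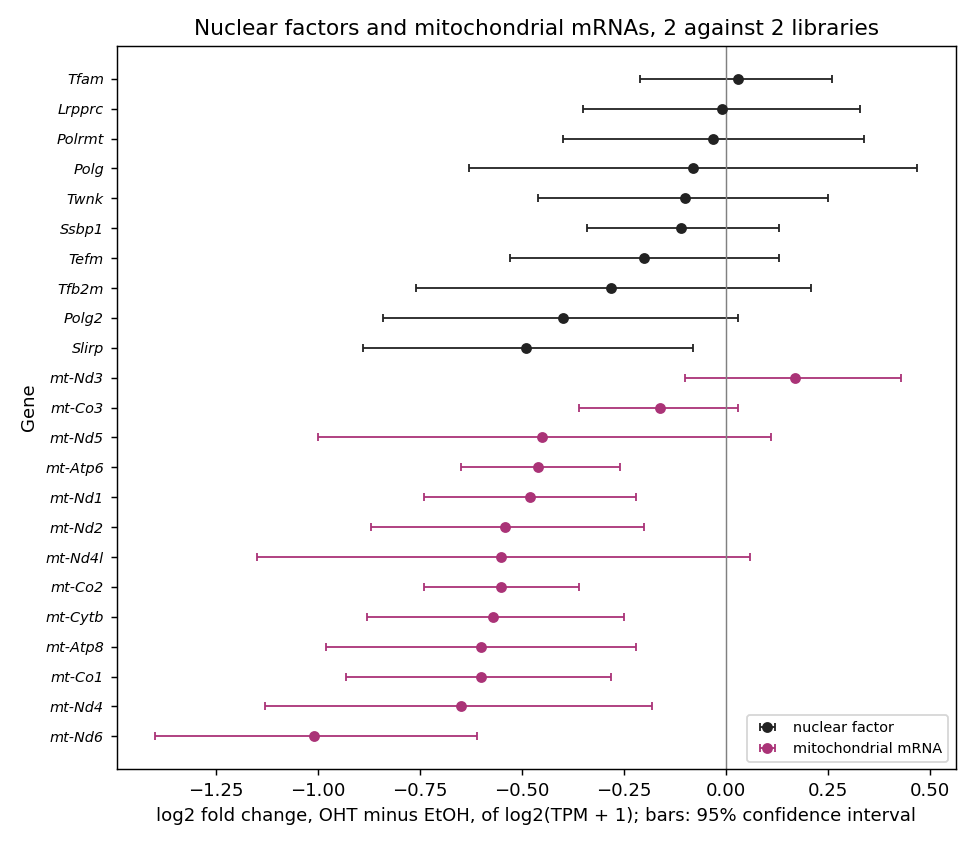
Log2 fold change (OHT minus EtOH, of log2(TPM + 1)) of the 10 nuclear genes in black and of the 13 mitochondrial mRNAs in purple, with limma's 95% confidence intervals from 2 against 2 libraries. The nuclear genes run from -0.49 for Slirp to 0.03 for Tfam, and the mitochondrial mRNAs from -1.01 for mt-Nd6 to 0.17 for mt-Nd3.

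The start of transcription rests on the polymerase POLRMT, the DNA-bending factor TFAM and the promoter-melting factor TFB2M. Tfam (ENSMUSG00000003923.15, chromosome 10, 71225464 to 71238280, minus strand) read 120.2 and 126 TPM in the EtOH libraries against 124 and 127 TPM in the OHT libraries. The groups overlapped, and its log2 fold change was 0.03 (95% interval -0.21 to 0.26, limma adjusted p = 0.953), turning to -0.01 under median of ratios scaling and at 0.14 after the length and GC correction. Polrmt (ENSMUSG00000020329.13, chromosome 10, 79736123 to 79746581, minus strand) read 22.8 and 21.0 TPM in the EtOH libraries against 19.9 and 23.0 TPM in the OHT libraries. Its groups overlapped as well, the OHT libraries lying on either side of the EtOH pair (log2 fold change -0.03, interval -0.40 to 0.34, limma adjusted p = 0.963; -0.16 after the length and GC correction). Tfam stood at 5.27 and 5.99 times Polrmt in the EtOH libraries and at 6.22 and 5.52 times in the OHT libraries, without separation of the groups.

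Tfb2m (ENSMUSG00000026492.12, chromosome 1, 179528055 to 179546267, minus strand) read 19.6 and 20.3 TPM in the EtOH libraries against 13.6 and 19.4 TPM in the OHT libraries. OHT replicate 1 was far below the other 3 libraries, and OHT replicate 2 only just under the EtOH pair. The log2 fold change was -0.28 (interval -0.76 to 0.21, limma adjusted p = 0.690), and -0.18 after the length and GC correction, where the groups overlapped. It was -0.04 without OHT replicate 1 and -0.52 without OHT replicate 2 (adjusted p = 0.0204); such a fit takes the spread of the lone OHT library from the EtOH pair, and 2957 or 2478 of all genes pass in it without OHT replicate 1 or 2.

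Tefm, the factor that keeps the polymerase moving along the DNA, differed little but evenly. Tefm (ENSMUSG00000046909.10, chromosome 11, 80136678 to 80142175, minus strand) read 24.8 and 24.2 TPM in the EtOH libraries against 20.9 and 21.6 TPM in the OHT libraries. Both groups were tight and did not overlap, with a ratio of means of 0.867. The log2 fold change of -0.20 (interval -0.53 to 0.13) had a limma adjusted p of 0.680. After the length and GC correction it was -0.08, and the groups overlapped.

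Copying of mitochondrial DNA rests on polymerase gamma, made of the catalytic subunit POLG and the accessory subunit POLG2, which holds the enzyme on DNA. Polg2 (ENSMUSG00000020718.13, chromosome 11, 106768253 to 106779537, minus strand) read 4.75 and 4.24 TPM in the EtOH libraries against 3.31 and 2.99 TPM in the OHT libraries. Both OHT libraries were lower, at a ratio of means of 0.701. The log2 fold change was -0.40 (interval -0.84 to 0.03, limma adjusted p = 0.505), and at this low level it depended on the pseudocount, with -0.50 at 0.1 and -0.22 at 5. In Polg2 the direction and the separation of the groups held without each library in turn, at -0.34 to -0.47. Its exons share 132 bases with those of Milr1 on the opposite strand, which read 0.127 and 0.102 TPM with EtOH and was listed at 0 with OHT.

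Polg (ENSMUSG00000039176.18, chromosome 7, 79446231 to 79466362, minus strand) read 29.8 and 30.3 TPM in the EtOH libraries against 22.5 and 35.7 TPM in the OHT libraries. The OHT libraries stood on opposite sides of a tight EtOH pair. Its log2 fold change was -0.08 (interval -0.63 to 0.47, limma adjusted p = 0.937), with 0.24 without OHT replicate 1, -0.40 without OHT replicate 2 and -0.22 after the length and GC correction. Polg TPM was 6.28 and 7.14 times that of Polg2 in the EtOH libraries and 6.80 and 12.0 times in the OHT libraries, so the groups overlapped. Polg shares 921 exonic bases with Fanci, a DNA repair gene on the opposite strand, and Fanci read 19.3 and 20.0 TPM in the EtOH libraries against 14.5 and 20.2 TPM in the OHT libraries. Whether strand was kept is not given in the sources used here, so reads from such overlaps cannot be told apart.

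Twnk, the helicase that unwinds mitochondrial DNA ahead of the polymerase, and Ssbp1, which coats the single strands it leaves, stood closer to their controls. Twnk (ENSMUSG00000025209.6, chromosome 19, 45005663 to 45012762, plus strand) read 21.7 and 21.3 TPM in the EtOH libraries against 18.8 and 21.1 TPM in the OHT libraries. OHT replicate 2 lay only just under the EtOH pair, and the log2 fold change was -0.10 (interval -0.46 to 0.25, limma adjusted p = 0.861), with -0.02 without OHT replicate 1 and -0.18 without OHT replicate 2. Ssbp1 (ENSMUSG00000029911.15, chromosome 6, 40471352 to 40484700, plus strand) read 159.6 and 168 TPM in the EtOH libraries against 156 and 147 TPM in the OHT libraries. Ssbp1 was lower in both OHT libraries by a small margin, with a log2 fold change of -0.11 (interval -0.34 to 0.13, limma adjusted p = 0.761) that turned to 0.02 after the length and GC correction. Its groups overlapped after that correction and under median of ratios scaling and quantile normalization. Twnk shares 507 exonic bases with Mrpl43, a mitochondrial ribosomal protein gene on the opposite strand, which read 59.3 and 56.0 TPM in the EtOH libraries against 67.5 and 58.6 TPM in the OHT libraries.

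LRPPRC and SLIRP form a complex that binds mitochondrial mRNAs in the matrix, shields them from decay and helps their polyadenylation. Slirp (ENSMUSG00000021040.16, chromosome 12, 87443896 to 87452206, plus strand) read 160.2 and 158 TPM in the EtOH libraries against 134 and 95.6 TPM in the OHT libraries. Both OHT libraries were below both EtOH libraries, which differed by only -0.02 on the log2 scale, while the OHT pair differed by -0.48. The ratio of means was 0.721 and the log2 fold change -0.49 (SE 0.17, interval -0.89 to -0.08, unadjusted p = 0.0263, limma adjusted p = 0.410). Slirp was at -0.73 without OHT replicate 1, at -0.25 without OHT replicate 2 and at -0.39 after the length and GC correction (limma adjusted p = 0.334).

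Lrpprc (ENSMUSG00000024120.13, chromosome 17, 84705247 to 84790789, minus strand) read 37.5 and 41.2 TPM in the EtOH libraries against 36.1 and 42.2 TPM in the OHT libraries. The OHT values enclosed the EtOH values, and the log2 fold change was -0.01 (interval -0.35 to 0.33, limma adjusted p = 0.982), with 0.10 without OHT replicate 1, -0.12 without OHT replicate 2 and 0.05 and -0.08 without an EtOH library. Slirp TPM was 4.27 and 3.82 times that of Lrpprc in the EtOH libraries and 3.71 and 2.27 times in the OHT libraries. This ratio was lower in both OHT libraries, by a small margin in replicate 1.

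The Slirp value is uncertain because of its neighbours. Its exons share 2914 bases with those of Snw1, a splicing factor gene, and 122 bases with those of Alkbh1, a demethylase gene that starts head to head with it, both on the opposite strand. Alkbh1 read 30.3 and 28.0 TPM in the EtOH libraries against 22.2 and 25.2 TPM in the OHT libraries (log2 fold change -0.29, SE 0.14, limma adjusted p = 0.546). Snw1 read 93.6 and 93.7 TPM in the EtOH libraries against 83.3 and 89.4 TPM in the OHT libraries (-0.12, SE 0.10, limma adjusted p = 0.759). All 3 genes were lower in both OHT libraries, Slirp by the most in OHT replicate 2 and its neighbours in OHT replicate 1. A protein-coding start on the opposite strand within 1000 bases was found for 3 of the 10 genes (Tfb2m, Twnk and Slirp) and for 16.3% of tested genes. No near-identical copy of the 10 was found among annotated transcripts at 95% identity over at least 50% of the longest protein-coding transcript. Tfam has transcripts of up to 4167 bases against a median of 899, and Ssbp1 of up to 4398 against 1126. In these genes a copy of a transcript of median length would be missed, so such copies are not excluded. For 8 of the 13 mitochondrial mRNAs described further on, the same search found nuclear pseudogene copies, among them mt-Co3 (100% identity), mt-Nd3 (99.7%) and mt-Nd4 (100%, over 63.6% of its length), but none for mt-Nd6. No such copy has a row of its own in the table, so the values of those 8 are uncertain where reads could come from either.

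The OHT replicates differed from each other in step with transcript length. Over the third of tested genes with the shortest transcripts (up to 1939 bases), the median of OHT replicate 2 minus replicate 1 was -0.01 on the log2 scale. It was 0.23 in the middle class and 0.43 in the longest. The annotated transcript of Polg, the longest of the 10 (7837 bases), had a difference of 0.64, and that of Tfb2m (2449 bases) one of 0.48. Polrmt, Twnk and Lrpprc lay between 0.16 and 0.22, and Tfam, Tefm, Ssbp1 and Polg2, all with a median length of 1506 bases or fewer, between -0.11 and 0.05. Slirp, with annotated transcripts of 802 to 2701 bases, stood apart from its length class at -0.48. The part of this length trend in the differences above was not tested beyond the corrected values given there.

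**Figure D3:**
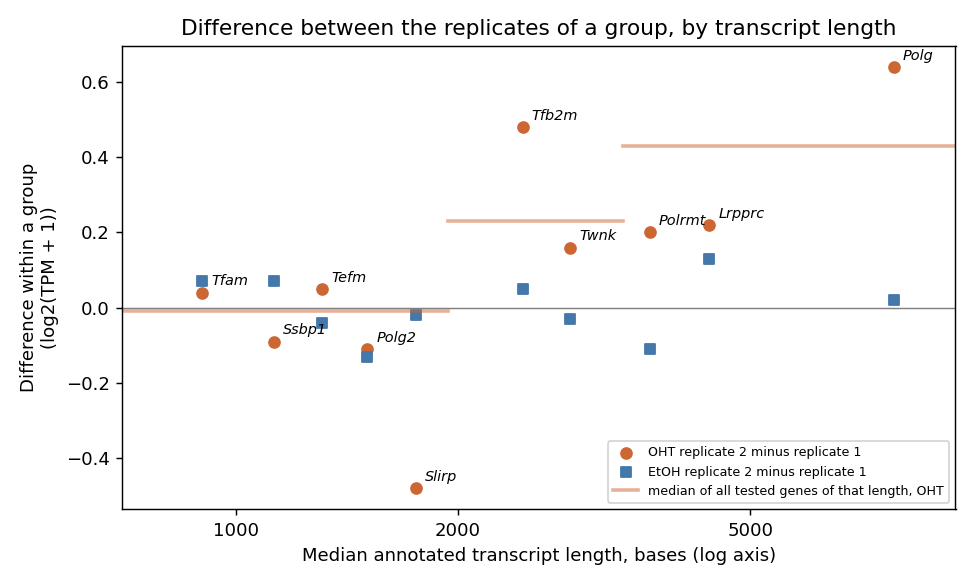
Difference between replicates 2 and 1 (log2(TPM + 1)) of the OHT group (orange) and of the EtOH group (blue squares) for the 10 genes, against median annotated transcript length on a log axis; orange lines are medians of all tested genes in each length class. Polg is at 0.64 and Slirp at -0.48 in OHT, while all EtOH differences lie between -0.13 and 0.13.

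Most mRNAs of the mitochondrial genome read lower with OHT. The 13 mitochondrial mRNAs made up 4.26% and 4.35% of all TPM with EtOH and 2.93% and 3.38% with OHT. Both OHT libraries were below both EtOH libraries for 12 of the 13, where 19.4% of all tested genes were. At an unadjusted limma p under 0.05 on the lower side stood 9 of the 13, where 4.46% of all tested genes stood. None passed after adjustment. The median log2 fold change of the 13 was -0.55, against -0.11 for the 10 nuclear factors. mt-Nd6, the only member of the 13 encoded on the opposite (minus) strand, went from 89.7 and 110.0 TPM to 43.7 and 54.9 TPM, the largest difference of the 13 (log2 fold change -1.01, SE 0.16, limma adjusted p = 0.158). Per 1000 TPM of the other 12, mt-Nd6 stood at 2.11 and 2.54 with EtOH and at 1.49 and 1.63 with OHT, lower in both OHT libraries. Whether strand was kept is not given, so RNA of the opposite strand at this place cannot be told apart from mt-Nd6. How fully poly(A) selection captured mt-Nd6, or any other mitochondrial mRNA, was not measured. mt-Nd4 differed most after mt-Nd6 (1572 and 1625 TPM against 819 and 1259.7 TPM, log2 fold change -0.65). mt-Co3 had the smallest of the negative values (-0.16). After the length and GC correction the log2 fold changes were -0.65 for mt-Nd6, -0.38 for mt-Nd4 and 0.03 for mt-Co3. The log2 fold change of mt-Nd6 was -1.15 without EtOH replicate 1 and -0.86 without EtOH replicate 2. Without OHT replicate 1 and 2 in turn, mt-Nd6 was at -0.84 and -1.17, mt-Nd4 at -0.34 and -0.96, and mt-Co3 at -0.13 and -0.20. The exception was mt-Nd3, named after its values were seen, at 2494 and 2299.7 TPM in the EtOH libraries against 2919 and 2472 TPM in the OHT libraries. In bulk RNA, fewer mitochondrial transcripts per cell and fewer cells rich in them cannot be told apart. With the mitochondrial genes left out and TPM rescaled, the median of the 10 nuclear factors was -0.12.

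Among genes whose proteins process and degrade mitochondrial RNA, none passed the threshold. Of 32 such genes, all tested, the OHT pair was below the EtOH pair for 13 and above it for 2, where 19.4% and 23.1% of all tested genes were, and the median log2 fold change was -0.12. Rexo2, which degrades the shortest RNA fragments, read 110.1 and 110.6 TPM in the EtOH libraries against 79.1 and 77.2 TPM in the OHT libraries. Both pairs were tight and far apart (log2 fold change -0.49, SE 0.10, limma adjusted p = 0.230). Rexo2 had the smallest p of the list, and its log2 fold change was -0.51 without OHT replicate 1 and -0.47 without OHT replicate 2. Supv3l1, the helicase of the mitochondrial RNA degradosome, was at -0.29 (SE 0.12), and Fastkd2, an RNA-binding protein of mitochondrial RNA granules, at -0.32 (SE 0.14). Without OHT replicate 1 they were at -0.23 and -0.25, and without OHT replicate 2 at -0.34 and -0.40. On the higher side stood Hsd17b10, a subunit of the enzyme that trims tRNA ends (0.16, SE 0.10), Mterf3 (0.13, and 0.26 after the length and GC correction) and Rpusd3 (0.12).

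Among genes of mitochondrial DNA maintenance and nucleotide supply, none passed the threshold either. Of 16 tested, the OHT pair was below for 3 and above for 4, near the shares of all tested genes (19.4% and 23.1%), with a median of -0.05. Mgme1, the nuclease that trims DNA ends during copying, read 32.0 and 31.7 TPM in the EtOH libraries against 21.5 and 26.0 TPM in the OHT libraries (log2 fold change -0.41, SE 0.15, limma adjusted p = 0.428). Both OHT values of Mgme1 were lower, and its log2 fold change was -0.28 without OHT replicate 1 and -0.54 without OHT replicate 2. On the higher side, Slc25a33, a pyrimidine nucleotide carrier, read 17.8 and 17.0 TPM in the EtOH libraries against 23.4 and 21.3 TPM in the OHT libraries (0.35, SE 0.15). Rrm2b, a ribonucleotide reductase subunit induced by p53, read 3.63 and 3.03 TPM in the EtOH libraries against 4.11 and 6.15 TPM in the OHT libraries (0.48, SE 0.23). Mpv17 (0.16), Atad3a (-0.19) and Rnaseh1 (-0.14) were the others with the smallest p in their direction. Without OHT replicate 1 and 2 in turn, Slc25a33 was at 0.28 and 0.41, Rrm2b at 0.73 and 0.24, and Atad3a at -0.13 and -0.25.

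None of the regulators of these genes or proteases of the nucleoid passed. Of 12 listed, 11 were tested; Ppargc1a, a coactivator of mitochondrial biogenesis, was listed at 0 in all 4 libraries. The OHT pair was above for 3 and below for none (23.1% and 19.4% of all tested genes), and the median was -0.03. Gabpa, which encodes the ETS subunit of GABP, read 82.0 and 91.1 TPM in the EtOH libraries against 66.9 and 97.7 TPM in the OHT libraries, and its groups overlapped. Nrf1 overlapped as well, at 78.6 and 82.3 TPM against 71.3 and 87.1 TPM. Both were named after their values were seen, for the motifs above. Lonp1, the protease that degrades free TFAM, was at 0.10 (SE 0.11) and Esrra, a nuclear receptor that acts on mitochondrial genes, at 0.24 (SE 0.19); after the length and GC correction they were at 0.02 and 0.14. Gabpb1 (0.09), Yy1 (-0.11), Clpp (-0.07) and Clpx (-0.07) had the remaining smallest p-values.

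**Figure D4:**
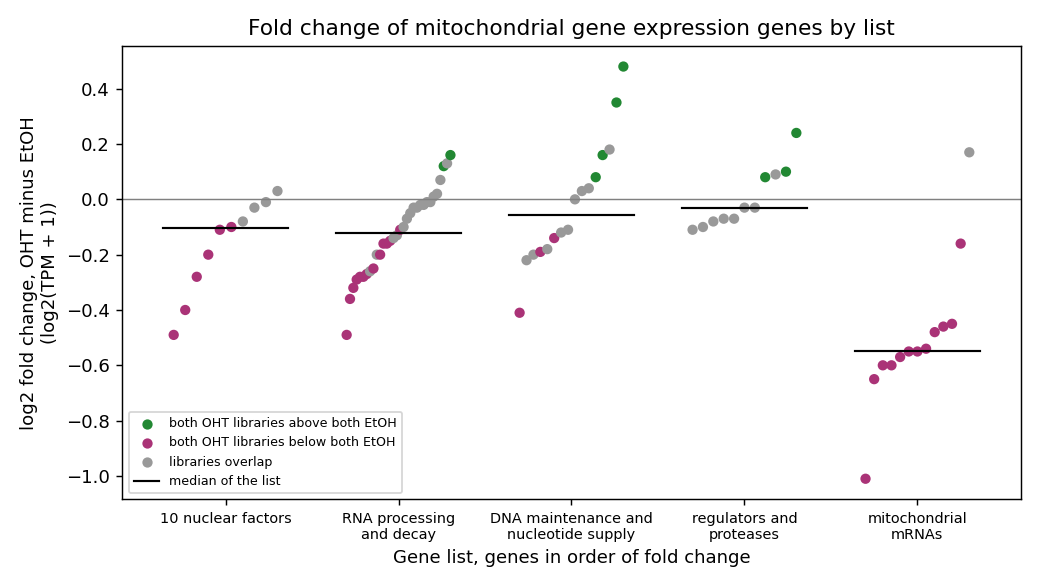
Log2 fold change (OHT minus EtOH, of log2(TPM + 1)) of each tested gene in 5 lists, in order within a list; black lines are list medians, purple points have both OHT libraries below both EtOH libraries, green points both above, and grey points overlap. The mitochondrial mRNAs have a median of -0.55, the 10 nuclear factors -0.11 and the regulators -0.03.

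Cbx2 itself read 2.29 and 2.71 TPM in the EtOH libraries against 0.749 and 1.14 TPM in the OHT libraries, lower in both (limma adjusted p = 0.265). All 10 pluripotent stem cell markers were tested, and their summed level was 9041 to 9112 TPM with EtOH and 10623 to 11875 TPM with OHT. Most of that difference was Dppa5a (mean 4673 TPM with EtOH and 6356 TPM with OHT). Both OHT libraries were higher for 6 of the 10 markers, Pou5f1 and Nanog among them, and lower for Lin28a (log2 fold change -0.47, limma adjusted p = 0.272) and Sall4 (-0.17), while Sox2 and Tfcp2l1 overlapped. Among all tested genes 23.1% were higher and 19.4% lower in this way. Fibroblast and feeder markers summed to 6.28 to 7.32 TPM with EtOH and 8.69 to 12.8 TPM with OHT. Only 1 of 9 was tested, Thy1, and Postn and Twist2 were listed at 0 throughout. Thy1 made up most of the sum (mean 5.92 TPM with EtOH and 9.29 TPM with OHT). Below the filter, Col1a1 and Col1a2 were higher in both OHT libraries, Dcn was lower, and Col3a1, Pdgfrb and Lum overlapped. Primitive endoderm markers (4 of 6 tested) summed to 6.35 to 6.62 TPM and 5.98 to 7.34 TPM. Trophoblast markers (3 of 6 tested) summed to 39.2 to 40.1 TPM and 39.5 to 44.9 TPM, most of it Tfap2c (mean 33 TPM with EtOH and 34 TPM with OHT). The part of the pluripotent and fibroblast marker differences in the results above was not tested.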

How the data were processed

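Poly(A)-selected RNA was sequenced in 4 libraries, 2 per group. The deposited values are TPM, made by the authors with Trim Galore and Salmon against GRCm38 (mm10), per the submitters' processing notes. Their versions and settings, and the annotation release, are not given in those notes. Each column of TPM sums to 1000000, so depth per library is unknown and no counting interval was computed. The table has 2 further columns of values that match no sample, and these were not used.

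Values were analysed as log2(TPM + 1), so fold changes understate the change of low genes. The filter kept 12029 of 22266 genes, those averaging 1 TPM or more. Groups were compared with limma 3.58.1 in R 4.3.3 (two-sided, with a trend of variance on mean; 2 residual and 4.01 prior degrees of freedom) and Benjamini-Hochberg adjustment over all genes tested, threshold 0.05. The fit was tested on simulated data, where many of the changed genes missed the threshold. SE and 95% intervals are limma's moderated ones.

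The 10 genes and the lists were chosen with earlier results of these data known. Besides the 10, the rule named up to 3 genes per direction with the smallest p from each pathway list, mt-Nd6, the 2 largest and the smallest of the negative mitochondrial mRNA fold changes. The list of mitochondrial rRNAs is not analysed here. Gene coordinates, transcript lengths (median over a gene's basic protein-coding transcripts) and overlaps come from GENCODE mouse release 21 (GRCm38), matched for 22213 identifiers without their version numbers. Copies were sought with blastn 2.17.0. The trend with length and GC content was removed per library with a smooth additive model (mgcv 1.9.3). Other alternatives were other pseudocounts, filters, scalings and moderation, each library left out, and a replicate block.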

Additional observations from a re-analysis of the deposited data

How the results depend on the processing

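Of the 149 fold changes of the 10 nuclear genes under alternatives, 136 kept their sign and their side of the threshold. The sign turned for Tfam under median of ratios scaling (-0.01), and for Ssbp1 (0.02) and mt-Co3 (0.03) after the length and GC correction. Where leaving out 1 library turned the sign, the values ran over -0.13 to 0.07 for Polrmt, -0.01 to 0.06 for Tfam, -0.40 to 0.24 for Polg, -0.12 to 0.10 for Lrpprc, -0.10 to 0.27 for Gabpb1, -0.23 to 0.01 for Yy1 and -0.16 to 0.02 for Clpx. With all 4 libraries in the fit, none of the 10 passed except 1, Slirp, with a replicate block (limma adjusted p = 0.00958), where 474 of all genes passed. Without OHT replicate 1, 4 of the 10 lay above and 6 below, and without OHT replicate 2, 0 lay above and 9 below. Among all tested genes 61.9% lay above and 26.3% below without OHT replicate 1. Without OHT replicate 2 these shares were 29.8% and 56.3%. Without either EtOH library 6 of the 10 lay below, and 1 lay above without EtOH replicate 2. The shares over all tested genes were not computed there, so these counts cannot be set against them.

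Over all genes, the 5 past the threshold (1 higher, 4 lower) became 0 (0 and 0) without a filter, 3 (0 higher) under median of ratios scaling, quantile normalization and limma without a trend, and 28 (14 and 14) after the length and GC correction. At a pseudocount of 0.1, 2 were higher. Leaving out 1 library gave 34 to 2957 (12 to 2222 higher, 22 to 1750 lower), the lone library taking its spread from the other pair; the split turned from 2222 higher and 735 lower without OHT replicate 1 to 728 higher and 1750 lower without OHT replicate 2. The median of all tested genes was 0.14 and -0.09 in these 2 fits. For these counts the cause was not tested. Replicate numbers were not shown to pair the libraries (correlation of deviations 0.29 across genes); with the replicate block 474 genes passed (261 higher, 213 lower). Besides Slirp, mt-Nd6 (limma adjusted p = 1.43e-09), mt-Nd4 (2.57e-06) and Rexo2 (0.0141) passed with the block, and none of the other genes chosen by the naming rule did. The block leaves fewer residual degrees of freedom than the 2 of the main fit. Its p-values, that of Slirp included, therefore rest more on variance pooled over genes than on the spread of the gene itself. Depth is unknown, so what it limits cannot be given.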
